A study of Arabidopsis thaliana with 48 samples.

Results

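The transcripts of the 9 ATG8 genes of Arabidopsis thaliana and of the autophagy receptor gene NBR1 were followed in whole seedlings of an snrk1a1/a2 mutant and of wild type. The genes were taken by locus identifier: ATG8a (AT4G21980), ATG8b (AT4G04620), ATG8c (AT1G62040), ATG8d (AT2G05630), ATG8e (AT2G45170), ATG8f (AT4G16520), ATG8g (AT3G60640), ATG8h (AT3G06420), ATG8i (AT3G15580) and NBR1 (AT4G24690). These are 10 of the 32678 genes in the count tables, and all 10 passed the filter on low counts. The mutant carries the names of SNRK1A1 and SNRK1A2, the catalytic subunits of the SnRK1 kinase that are also called KIN10 and KIN11, and its libraries are marked kd in the titles. How the mutant was made, and whether it is 1 line, is not given in the sources used here. Seedlings of both genotypes were taken in the dark at 3, 4 and 5 d after germination, and in light at 4 and 5 d. Seedlings of both genotypes were also taken with glucose at 4 d, in the dark and in light. The data are 42 libraries, 3 for each of 7 mutant and 7 wild type groups. The dose of glucose, the start of the light and the origin of the replicates are not given, so the p-values measure the spread between the sequenced samples, which may be technical.

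ATG8 is a ubiquitin-like protein that is attached to phosphatidylethanolamine on the membrane of the forming autophagosome. The protease ATG4 trims its C-terminus to a glycine, after which ATG7, ATG3 and the complex of ATG12, ATG5 and ATG16 attach the lipid. NBR1 is a cargo receptor that binds ubiquitinated proteins and ATG8, and it is degraded in the vacuole together with its cargo. SnRK1 is the energy-sensing kinase of plants, related to yeast Snf1 and animal AMPK, and is known to promote autophagy when carbon is short.

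The family divides by the end of its coding sequence, where ATG4 acts, and these ends are shown to place each member. Each line holds the last 45 bases of the longest RefSeq coding model in TAIR10.1, 5′ to 3′ on the coding strand, with the codon of the glycine after threonine and phenylalanine in capitals.
ATG8a (chr4:11656765-11656809, plus strand): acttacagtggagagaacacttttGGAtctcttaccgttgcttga
ATG8b (chr4:2328663-2328707, minus strand): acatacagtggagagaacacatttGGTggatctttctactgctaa
ATG8c (chr1:22934209-22934253, plus strand): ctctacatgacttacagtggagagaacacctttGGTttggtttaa
ATG8d (chr2:2083211-2083255, minus strand): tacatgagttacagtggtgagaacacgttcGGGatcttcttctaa
ATG8e (chr2:18625482-18625526, plus strand): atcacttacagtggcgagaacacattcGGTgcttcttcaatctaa
ATG8f (chr4:9306882-9306926, minus strand): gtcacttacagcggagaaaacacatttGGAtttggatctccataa
ATG8g (chr3:22416927-22416971, plus strand): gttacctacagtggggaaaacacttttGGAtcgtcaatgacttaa
ATG8h (chr3:1955219-1955263, minus strand): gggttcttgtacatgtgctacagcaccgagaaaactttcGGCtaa
ATG8i (chr3:5274075-5274119, minus strand): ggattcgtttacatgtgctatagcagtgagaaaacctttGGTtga
Between this glycine codon and the stop codon stood 5 codons in ATG8a and ATG8b, 4 in ATG8e, ATG8f and ATG8g, 3 in ATG8d and 2 in ATG8c. In ATG8h and ATG8i the glycine codon was the last before the stop. The coding sequences of the 9 genes were 47.5% to 77.7% identical in pairs, with ATG8e and ATG8g the closest pair. ATG8c has 2 coding models with different ends, of which the longer is shown.

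The libraries held 4956025 to 26126836 counts in the transcript models used. By edgeR's quasi-likelihood test, no comparison of genotype called KIN10 lower in the mutant. It was called higher there in light, with an adjusted p of 0.00905 for the log2 fold change of 1.24 ± 0.40 at 4 d, and of 0.000528 for that of 1.71 ± 0.40 at 5 d. These calls go with 3 mutant libraries, replicate 1 at 4 d and replicates 1 and 3 at 5 d in light, in which KIN10 reached 542, 614 and 589 CPM, against 123 to 174 CPM in the other 3 mutant light libraries. KIN11 was called lower in the mutant at 4 d in the dark (log2 fold change −0.47 ± 0.17, adjusted p = 0.0205) and at 4 d in light with glucose (−1.01 ± 0.18, adjusted p = 0.000542). In the dark with glucose, the libraries labelled mutant 2 and wild type 2 went against their labels: KIN11 stood at 28.9 CPM in mutant 2 as labelled, where mutant 1 and 3 had 14.6 and 19.4 CPM, and at 18.4 CPM in wild type 2 as labelled, where wild type 1 and 3 had 28.0 and 28.8 CPM. Mutant replicate 3 at 5 d in light held seed storage transcripts, with CRA1 at 484 CPM. The 6 shoot markers summed to 62.9 to 186 CPM in untreated mutant libraries and 171 to 261 CPM in untreated wild type libraries, with none at 0 in any library. The 8 root markers summed to 67.4 to 292 CPM in untreated mutant libraries and 111 to 243 CPM in untreated wild type libraries, and the 2 green tissue markers to 1719 to 11560 CPM in untreated mutant libraries and 7441 to 49510 CPM in untreated wild type libraries. The part of these differences in the results was not tested. In whole seedlings, fewer cells of a type and less RNA per cell cannot be told apart.

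Levels between genes were compared in TPM, the length-scaled transcript measure, which divide counts by the length of the model. ATG8f, one of the members that ATG4 trims, gave the most ATG8 transcript in untreated wild type, from 171 ± 38.4 TPM at 3 d in the dark to 343 ± 69.0 TPM at 5 d in the dark (SD, n = 3). ATG8e came next among the ATG8 genes, at 101 ± 20.8 TPM at 3 d in the dark and 296 ± 18.6 TPM at 5 d in light, and at 5 d in light its level and that of ATG8f (312 ± 12.6 TPM) differed by less than the spread between replicates. The order was different in the untreated mutant, where ATG8a led the family at every age and light condition, at 133 ± 12.3 TPM at 3 d in the dark and 259 ± 34.4 TPM at 5 d in light. Its mean at 4 d in light and that of ATG8b differed by less than the spread between replicates (180.5 ± 20.3 and 178.6 ± 56.8 TPM). NBR1 exceeded each ATG8 gene in every untreated mutant group, with 246 ± 32.9 TPM at 3 d and 877 ± 152 TPM at 5 d in the dark. Over the 14 groups, NBR1 had the widest range of group means (8.89-fold from the lowest to the highest), followed by ATG8b (8.29-fold) and ATG8e (8.27-fold). ATG8i and ATG8c had the narrowest, at 2.12-fold and 2.14-fold. ATG8g was the least abundant member in most groups, with a median of 27.8 TPM over the 14 group means, against 131 TPM for ATG8f.

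**Figure D1:**
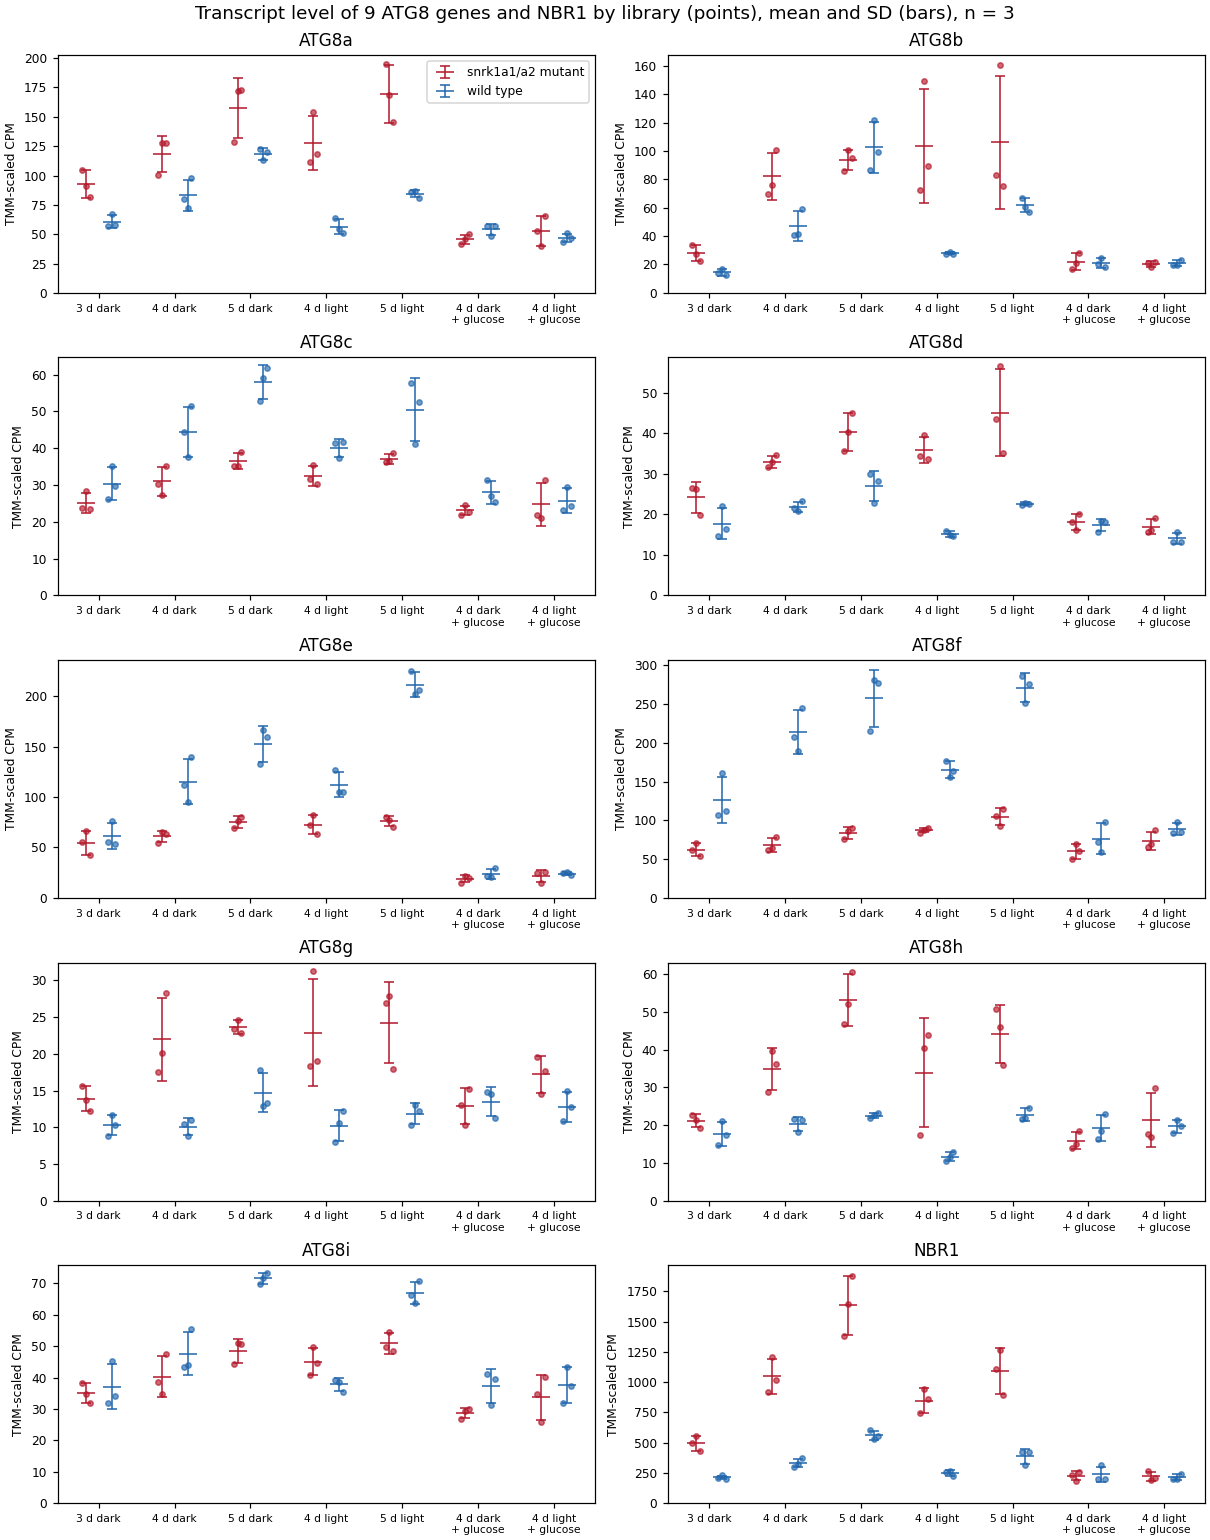
Level of each gene in TMM-scaled CPM (vertical axis) in the 7 conditions (horizontal axis), with the mutant in red left of wild type in blue. Points are libraries, long ticks group means and error bars SD (n = 3). NBR1 in the untreated mutant lies between 430.3 and 1876 CPM, above the wild type libraries of the same age and light, which lie between 201 and 604 CPM.

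NBR1 transcript was higher in the mutant in every comparison without glucose, and the libraries of the 2 genotypes did not overlap in any of them. Values are CPM scaled by TMM, which compare libraries for 1 gene. At 3 d in the dark NBR1 was at 498, 556 and 430.3 CPM in the mutant and at 208, 229 and 201 CPM in wild type. In 4 d dark seedlings it was at 918, 1207 and 1019 CPM in the mutant and at 298, 326 and 369.7 CPM in wild type. At 5 d in the dark it was at 1383, 1643 and 1876 CPM in the mutant and at 604, 530.1 and 552 CPM in wild type. In each of these ages every mutant library was above every wild type library, and the lowest mutant library at 4 d was above the highest wild type library at 5 d. In light, NBR1 was at 741, 945 and 856 CPM in the mutant and at 256, 265 and 222 CPM in wild type at 4 d. In 5 d light seedlings it was at 1109, 1269 and 893 CPM in the mutant and at 421, 313 and 425 CPM in wild type. In light, too, the lowest mutant library was above the highest wild type library at each age. The log2 fold changes of mutant over wild type were 1.22 ± 0.18 at 3 d in the dark (SE from the fit to all libraries, edgeR's quasi-likelihood test, adjusted p = 4.3e-06), 1.66 ± 0.18 at 4 d in the dark (adjusted p = 4.93e-09), 1.54 ± 0.18 at 5 d in the dark (adjusted p = 1.2e-08), 1.78 ± 0.18 at 4 d in light (adjusted p = 1.52e-09) and 1.497 ± 0.182 at 5 d in light (adjusted p = 1.74e-08). As ratios these are 2.33-fold to 3.43-fold.

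Of the 10 genes, 4 rose and 1 fell in the mutant at 3 d in the dark, where 17.3% of all tested genes were called higher and 14.3% lower (31.6% in all, adjusted p below 0.05). In the dark, 6 rose and 3 fell at 4 d, beside 29.5% of all genes higher and 28.5% lower (58.0% in all), and 5 rose and 4 fell at 5 d, beside 29.9% higher and 31.4% lower (61.3% in all). In light, 6 rose and 2 fell at 4 d, beside 28.8% higher and 25.2% lower (54.0% in all), and 6 rose and 4 fell at 5 d, beside 33.4% higher and 26.4% lower (59.8% in all). Calls were thus common among all genes in these comparisons. No member was called in both directions: ATG8a, ATG8b, ATG8d, ATG8g, ATG8h and NBR1 were called only as higher in the mutant, and ATG8c, ATG8e, ATG8f and ATG8i only as lower. The median log2 fold change of the 10 members was 0.34 at 3 d in the dark, 0.55 at 4 d in the dark, 0.14 at 5 d in the dark, 1.18 at 4 d in light and 0.88 at 5 d in light, while that of all tested genes was 0.01, 0.01, −0.04, 0.04 and 0.19 in the same order.

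**Figure D2:**
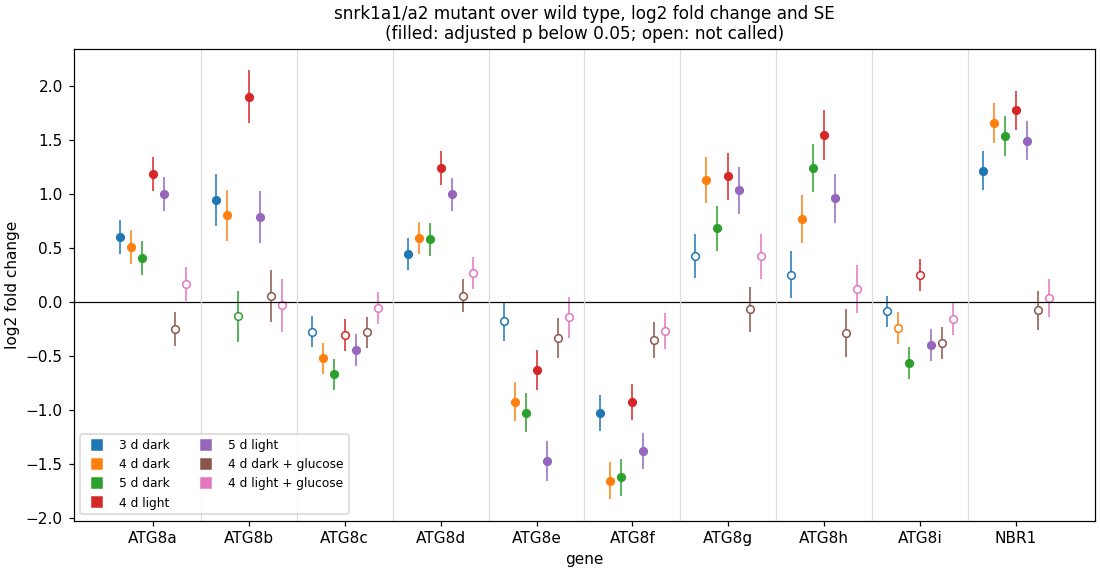
Log2 fold change of the mutant over wild type (vertical axis) with its SE for each gene (horizontal axis) in 7 conditions. Filled points passed an adjusted p of 0.05 and open points did not; NBR1 and ATG8a, ATG8b, ATG8d, ATG8g and ATG8h lie above 0 and ATG8c, ATG8e, ATG8f and ATG8i below it in the conditions where they were called, and no point with glucose is filled.

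Among the ATG8 genes that were higher in the mutant, ATG8a and ATG8d were called at every untreated age and light condition. At 4 d in light, ATG8a was at 111, 154 and 118 CPM in the mutant and at 63.4, 54.8 and 50.7 CPM in wild type. ATG8d at the same age in light was at 34.5, 39.5 and 33.7 CPM in the mutant and at 16.0, 14.9 and 14.8 CPM in wild type. The genotypes did not overlap for either gene, and the log2 fold changes were 1.19 ± 0.16 for ATG8a (adjusted p = 1.77e-07) and 1.24 ± 0.15 for ATG8d (adjusted p = 4.53e-08). In the dark the changes were smaller in size, 0.41 to 0.61 for ATG8a and 0.45 to 0.59 for ATG8d at the 3 ages. The call of ATG8a at 5 d in the dark (0.41 ± 0.16, adjusted p = 0.0222) was lost without wild type replicate 2 (adjusted p = 0.0699), mutant replicate 2 (0.0935) or mutant replicate 3 (0.0953). The call of ATG8d at 3 d in the dark (0.45 ± 0.15, adjusted p = 0.0192) was lost without wild type replicate 1 or 3 or mutant replicate 1 or 2, at adjusted p = 0.0818 to 0.124, and in a fit of only the groups compared (adjusted p = 0.0926).

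ATG8b, whose product is trimmed by ATG4, was higher in the mutant at 4 d in light. It was at 72.5, 149 and 89.2 CPM in the mutant and at 27.7, 28.5 and 27.1 CPM in wild type (log2 fold change 1.90 ± 0.25, adjusted p = 1.04e-07, and 1.54 without mutant replicate 2). Every mutant library was above the wild type libraries, but mutant replicate 2 was well above the other mutant libraries. The same holds at 5 d in light, with 82.8, 160.4 and 75.0 CPM in the mutant and 67.0, 60.8 and 57.2 CPM in wild type. The call there (0.79 ± 0.24, adjusted p = 0.00528) was lost without mutant replicate 2 (0.35, adjusted p = 0.191) and in a fit of only the groups compared (0.80, adjusted p = 0.0683). In the dark, ATG8b was higher in mutant seedlings of 3 d (0.95 ± 0.24, adjusted p = 0.00307) and of 4 d (0.80 ± 0.24, adjusted p = 0.00447). At 5 d in the dark it was at 86.2, 100.5 and 95.0 CPM in the mutant and at 86.6, 122 and 99.0 CPM in wild type, and the groups overlapped (−0.13 ± 0.24, adjusted p = 0.655).

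ATG8h ends at the glycine codon, as shown above. In the dark at 5 d it was at 46.8, 52.1 and 60.5 CPM in the mutant and at 21.8, 22.6 and 23.2 CPM in wild type (log2 fold change 1.24 ± 0.22, adjusted p = 1.39e-05). In light at 4 d it was at 17.4, 40.5 and 43.7 CPM in the mutant and at 10.5, 11.5 and 13.0 CPM in wild type (1.55 ± 0.23, adjusted p = 1.08e-06). The groups did not overlap in either case, although mutant replicate 1 at 4 d in light, one of the libraries with raised KIN10, was the lowest of its group by far. ATG8g, the least abundant member, had log2 fold changes of 0.69 to 1.17 in the 4 comparisons without glucose at 4 and 5 d, all of them called. At 3 d in the dark neither ATG8g (0.43 ± 0.21, adjusted p = 0.109) nor ATG8h (0.26 ± 0.22, adjusted p = 0.391) passed the test.

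ATG8f fell in the mutant at every untreated age and light condition, which was true of no other member. In the dark at 4 d it was at 61.5, 64.1 and 78.6 CPM in the mutant and at 208, 189 and 245 CPM in wild type. At 5 d in the dark it was at 75.4, 85.7 and 90.4 CPM in the mutant and at 215, 281 and 277 CPM in wild type. In light at 5 d it was at 106, 92.9 and 115 CPM in the mutant and at 286, 251 and 276 CPM in wild type. The highest mutant library was less abundant in ATG8f than the lowest wild type library in each of these conditions. The log2 fold changes were −1.02 ± 0.17 at 3 d in the dark (adjusted p = 1.86e-05), −1.65 ± 0.17 at 4 d in the dark (adjusted p = 1.57e-09), −1.62 ± 0.17 at 5 d in the dark (adjusted p = 1.19e-09), −0.92 ± 0.17 at 4 d in light (adjusted p = 2.2e-05) and −1.38 ± 0.17 at 5 d in light (adjusted p = 2.15e-08). Their size depends on the TMM scaling. In TPM, which are not so scaled, ATG8f at 5 d in light was at 160 ± 18.1 TPM in the mutant and 312 ± 12.6 TPM in wild type, a smaller fall.

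ATG8e did not differ by the test at 3 d in the dark, where it was at 55.6, 65.9 and 42.1 CPM in the mutant and at 55.1, 76.5 and 53.2 CPM in wild type (log2 fold change −0.17 ± 0.18, adjusted p = 0.489). At 5 d in light it was at 80.5, 77.7 and 70.7 CPM in the mutant and at 225, 202 and 206 CPM in wild type (−1.47 ± 0.18, adjusted p = 3.44e-08). The 2 genotypes overlapped at 3 d in the dark and were far apart at 5 d in light, conditions that differ in both age and light. Between these, ATG8e was lower in the mutant by −0.92 ± 0.18 at 4 d in the dark, −1.02 ± 0.18 at 5 d in the dark and −0.63 ± 0.18 at 4 d in light, all of them called. ATG8c was called lower at 4 d in the dark (−0.52 ± 0.15, adjusted p = 0.00282), 5 d in the dark (−0.67 ± 0.15, adjusted p = 0.000194) and 5 d in light (−0.45 ± 0.15, adjusted p = 0.0104). ATG8i, the other member that ends at the glycine codon, was called lower at 5 d in the dark (−0.56 ± 0.15, adjusted p = 0.00138) and 5 d in light (−0.39 ± 0.15, adjusted p = 0.0226). Leaving out the 3 mutant light libraries with raised KIN10 keeps only replicate 2 of the mutant at 5 d in light, too few for a call. The values there were then −0.43 for ATG8c and −0.25 for ATG8i. The call of ATG8c at 5 d in light was lost without wild type replicate 1 (adjusted p = 0.0778), and that of ATG8i without wild type replicate 3 or mutant replicate 1 or 3 (adjusted p = 0.0598 to 0.0714). In a fit of only the groups compared, the adjusted p was 0.0577 for ATG8c and 0.0602 for ATG8i. In TPM, which are not scaled by TMM, neither fall at 5 d in light was seen. ATG8c was at 68.1 ± 3.36 TPM in the mutant and 69.4 ± 9.4 TPM in wild type, and ATG8i at 111 ± 7.06 TPM in the mutant and 110 ± 1.68 TPM in wild type. The TMM factors there were 1.087 to 1.112 in the mutant and 0.755 to 0.874 in wild type. ATG8h and ATG8i, which share the form of their coding end, stood in different directions in the mutant at 5 d by the test.

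The make-up of the ATG8 transcript pool differed between the genotypes where its size in TPM overlapped. TPM were not scaled by TMM, unlike the CPM and the tests. The TMM factors, by which CPM are divided, were 0.890 to 0.961 in wild type and 1.059 to 1.105 in the mutant at 5 d in the dark. The sums may therefore compare differently on the scale of the tests, which was not computed, while shares within a library do not depend on it. The 9 genes summed to 590 ± 62.4 TPM in the mutant and 574.5 ± 99.9 TPM in wild type at 3 d in the dark, and to 1103 ± 132 TPM in the mutant and 1246 ± 179 TPM in wild type at 5 d in the dark, differences within the spread between replicates. The sums at 4 d in light were 844 to 1028 TPM in the mutant and 626 to 678 TPM in wild type and did not overlap in TPM. The TMM factors there, not applied to TPM, were 0.994 to 1.077 in the mutant and 0.824 to 0.874 in wild type. ATG8f made up 12.02 ± 0.51% of the sum in the mutant and 31.5% in wild type at 4 d in the dark, and 14.1% in the mutant and 29.7% in wild type at 5 d in light. ATG8a, ATG8b, ATG8d, ATG8g and ATG8h together made up 48.7 ± 2.83% in the mutant and 31.7 ± 1.58% in wild type at 3 d in the dark, 59.0 ± 0.99% in the mutant and 34.5 ± 1.99% in wild type at 5 d in the dark, and 57.8 ± 5.34% in the mutant and 25.2 ± 1.31% in wild type at 5 d in light. No library of the untreated mutant had less than 45.8% of its ATG8 transcript in these 5 genes, and no library of untreated wild type more than 36.7%. These 5 genes were grouped after their values were seen, so the shares describe the pattern and were not tested.

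NBR1 was also higher in the untreated mutant relative to the ATG8 sum, a ratio given here as a description. The ratio of NBR1 TPM to the ATG8 sum was 0.417 ± 0.025 in the mutant and 0.174 ± 0.020 in wild type at 3 d in the dark, 0.638 ± 0.096 in the mutant and 0.168 ± 0.018 in wild type at 4 d, and 0.792 ± 0.054 in the mutant and 0.207 ± 0.031 in wild type at 5 d (SD, n = 3). In light the ratio was 0.452 ± 0.032 in the mutant and 0.157 ± 0.015 in wild type at 4 d, and 0.494 ± 0.031 in the mutant and 0.144 ± 0.019 in wild type at 5 d. Every untreated mutant library was at or above 0.390 and every untreated wild type library at or below 0.243. With glucose, the ratio was 0.220 to 0.322 in the mutant and 0.188 to 0.350 in wild type in the dark, and 0.182 to 0.287 in the mutant and 0.190 to 0.257 in wild type in light, so that the genotypes overlapped. In the dark that overlap rests on the libraries labelled mutant 2 and wild type 2, without which the ratio was 0.322 and 0.287 in the mutant and 0.207 and 0.188 in wild type.

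**Figure D3:**
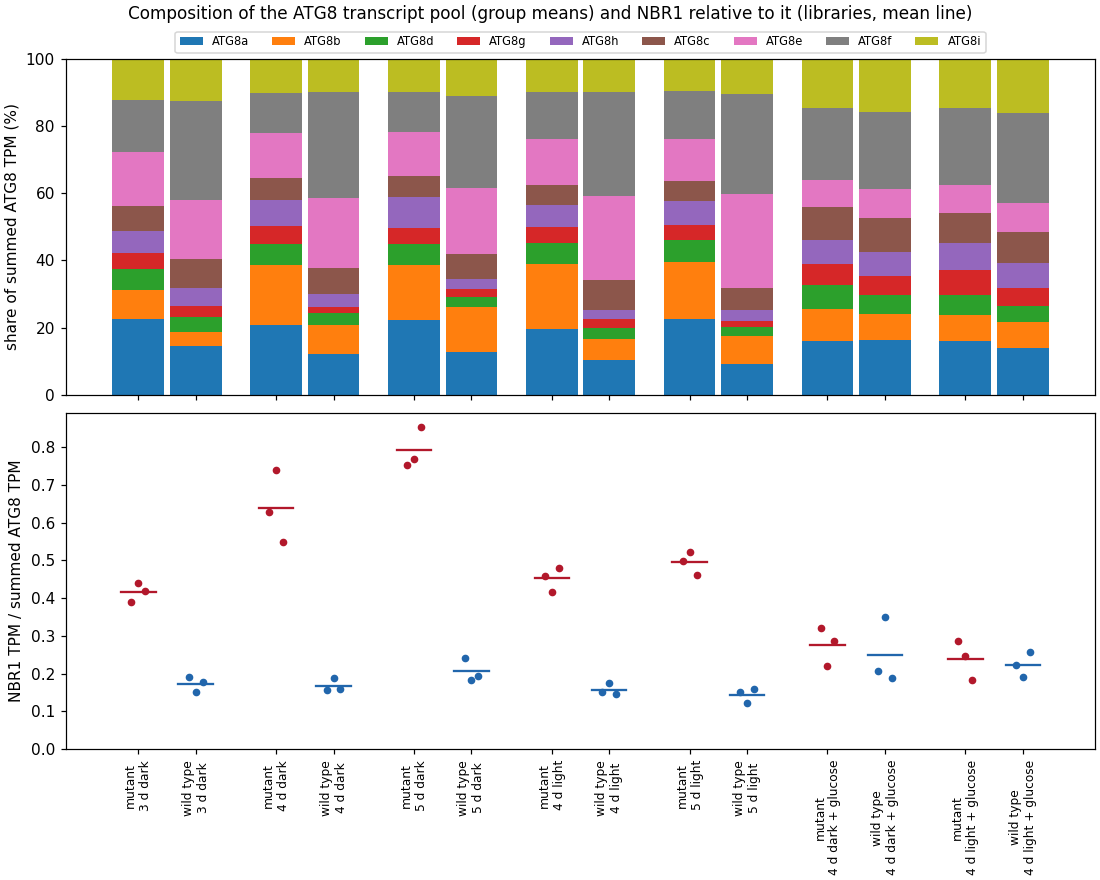
Upper panel, share of each ATG8 gene in the summed ATG8 TPM (percent, group means of 3 libraries) for the mutant and wild type side by side in each condition. Lower panel, NBR1 TPM divided by the summed ATG8 TPM, with points for libraries and lines for means; the untreated mutant lies at 0.390 to 0.853 and untreated wild type at 0.124 to 0.243.

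With glucose at 4 d, no member was called between the genotypes. In the dark, 0 of the 10 members passed edgeR's quasi-likelihood test, with 2 at an unadjusted p below 0.05, beside 0% of all tested genes, and DESeq2 also called 0 members. In light with glucose it called 0 members, with 1 at an unadjusted p below 0.05, beside 9.46% of all tested genes, and DESeq2 again called 0. NBR1 was at 235, 186 and 256 CPM in the mutant and at 202, 311 and 199 CPM in wild type in the dark with glucose (log2 fold change −0.07 ± 0.18), and at 264, 195 and 207 CPM in the mutant and at 200.1, 203 and 245 CPM in wild type in light with glucose (0.04 ± 0.18). The libraries of the genotypes overlapped in both, and among the 6 dark libraries wild type 2, as labelled, was the highest and mutant 2, as labelled, the lowest. Without these libraries, the change of NBR1 in the dark with glucose was 0.29 (adjusted p = 0.474) and that of ATG8f −0.61 (adjusted p = 0.0583), and again 0 members were called, while 1076 of 23239 tested genes were.

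Set against untreated seedlings of the same age, most calls with glucose were falls, in both genotypes. All glucose libraries carry the second series of titles and all untreated 4 d libraries the first, so that glucose and the title series cannot be told apart in what follows. In the mutant, 9 members fell and 0 rose in the dark (40.7% of all tested genes called) and 8 fell and 0 rose in light (43.0%). In wild type, 6 fell and 0 rose in the dark (42.9%) and 3 fell and 1 rose in light (36.4%). Tissue markers were also called with glucose. In the mutant, 5 of the 6 shoot markers rose in the dark and 5 in light, and 1 of the 8 root markers rose in the dark and 4 in light. Of the 2 green tissue markers, 1 rose in the mutant in the dark and 0 were called in light. In wild type 0 root markers were called, 1 shoot marker fell in the dark and 1 in light, and 1 of the 2 green tissue markers fell in the dark and 2 in light. With glucose the shoot markers summed to 160.3 to 211 CPM in mutant libraries and 168 to 220.2 CPM in wild type libraries. The part of these markers in the results was not tested. In the mutant the fall of NBR1 brought it to 186 to 256 CPM with glucose in the dark, against 918 to 1207 CPM without. Its log2 fold change was −2.22 ± 0.19 (adjusted p = 9.6e-11) in the dark and −1.93 ± 0.19 (adjusted p = 1.31e-09) in light. In wild type its log2 fold change was −0.48 ± 0.18 in the dark (adjusted p = 0.0292) and −0.20 ± 0.18 in light (adjusted p = 0.42). The call in the dark was lost without untreated wild type replicate 2 or 3 or glucose replicate 1 or 3 (adjusted p = 0.0553 to 0.146). It was kept without glucose replicate 2, the highest of its group at 311 CPM. Over 14 settings NBR1 was called in 8 there, with values from −0.72 to −0.37.

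ATG8e was lowered by glucose in both genotypes and both light conditions. In the dark it was at 15.2, 21.8 and 20.0 CPM with glucose and at 54.9, 64.99 and 62.9 CPM without in the mutant. In wild type in the dark it was at 21.7, 20.6 and 29.2 CPM with glucose and at 112, 94.8 and 139 CPM without. The groups did not overlap, and the log2 fold changes in the dark were −1.68 ± 0.19 for the mutant and −2.27 ± 0.19 for wild type, and those in light −1.73 ± 0.19 for the mutant and −2.21 ± 0.19 for wild type, with adjusted p from 7.01e-11 to 2.07e-08. ATG8c was also called lower in all 4 comparisons with glucose, by 0.39 to 0.67 in size, although the 2 mutant calls were lost without single libraries.

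ATG8f fell with glucose in wild type, to 71.9, 59.8 and 97.9 CPM in the dark against 208, 189 and 245 CPM without glucose (log2 fold change −1.48 ± 0.17, adjusted p = 2.66e-08). In the mutant it was at 50.1, 69.9 and 60.8 CPM with glucose and at 61.5, 64.1 and 78.6 CPM without, and the groups overlapped (−0.18 ± 0.17, adjusted p = 0.414). In the mutant, ATG8b fell in the dark (log2 fold change −1.91 ± 0.24) and in light (−2.35 ± 0.25), and in wild type it fell in the dark (−1.16 ± 0.24). Its value in wild type in light was −0.42 ± 0.24 (adjusted p = 0.183). ATG8h fell in the mutant in the dark (−1.13 ± 0.22, adjusted p = 0.000125) and rose in wild type in light (0.76 ± 0.23, adjusted p = 0.00913), where it was at 18.0, 21.4 and 19.7 CPM with glucose and at 10.5, 11.5 and 13.0 CPM without. It was the single rise of a member with glucose that passed the test.

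**Figure D4:**
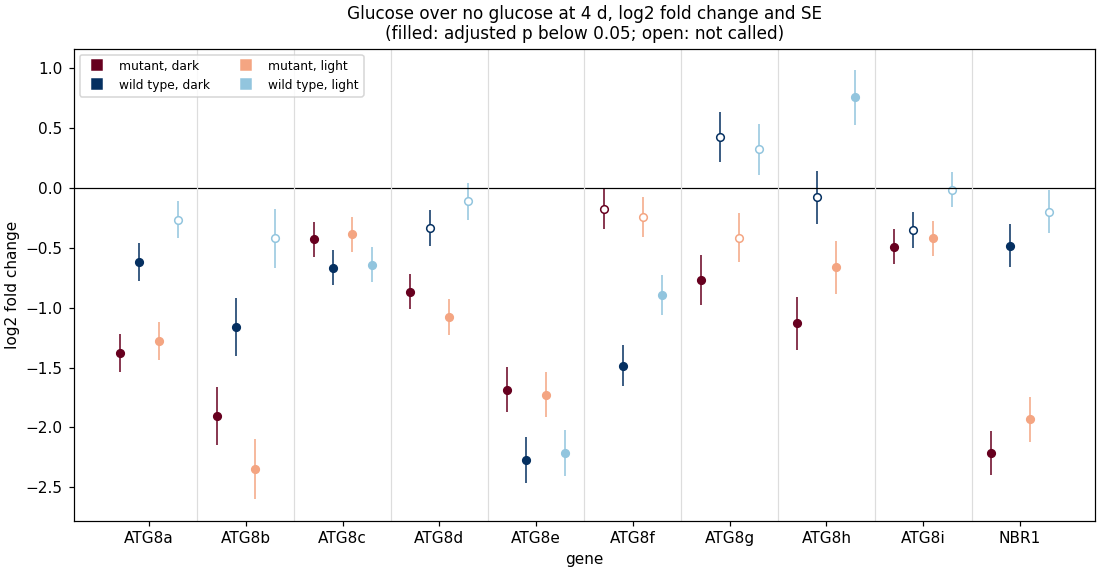
Log2 fold change of glucose over no glucose at 4 d (vertical axis) with its SE for each gene (horizontal axis), in the mutant and wild type, in the dark and in light. Filled points passed an adjusted p of 0.05; NBR1 lies at −2.22 and −1.93 in the mutant and at −0.48 and −0.20 in wild type, and ATG8f lies nearer to 0 in the mutant than in wild type.

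The difference between the genotypes in the change with glucose was tested as an interaction. In the dark 6 members were called (37.3% of all tested genes), NBR1 at −1.74 ± 0.25 (adjusted p = 5.22e-06), ATG8g at −1.20 ± 0.30, ATG8h at −1.05 ± 0.31, ATG8a at −0.76 ± 0.22 and ATG8d at −0.53 ± 0.21, all more negative in the mutant, and ATG8f at 1.31 ± 0.24 (adjusted p = 7.2e-05), more negative in wild type. Without the libraries labelled mutant 2 and wild type 2 with glucose the call of ATG8d was lost (−0.41, adjusted p = 0.222), and NBR1 was at −1.37 (adjusted p = 0.000295). The call of ATG8d was also lost in most refits without 1 library, at adjusted p = 0.0538 to 0.134. In light 6 members were called (29.8% of all tested genes), with ATG8b (−1.93 ± 0.34), NBR1 (−1.74 ± 0.25, adjusted p = 4.77e-06), ATG8h (−1.42 ± 0.32), ATG8a (−1.01 ± 0.22) and ATG8d (−0.97 ± 0.22) more negative in the mutant and ATG8f (0.66 ± 0.24) more negative in wild type. The call of ATG8f in light was lost in 7 of 12 refits without 1 library, at adjusted p = 0.0507 to 0.112. For ATG8e the interaction did not pass in the dark (0.59 ± 0.26, adjusted p = 0.0739) or in light (0.49 ± 0.26, adjusted p = 0.16).

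With age, every call among the members was a rise. In the dark, NBR1 in the mutant averaged 495 ± 63.0 CPM at 3 d, 1048 ± 147 CPM at 4 d and 1634 ± 247 CPM at 5 d, and in wild type 213 ± 14.7 CPM at 3 d, 332 ± 35.9 CPM at 4 d and 562 ± 38.1 CPM at 5 d. In the mutant 5 members rose between 3 and 4 d in the dark (24.2% of all tested genes called), NBR1 (1.08 ± 0.18), ATG8b (1.56 ± 0.24), ATG8d, ATG8g and ATG8h. Without mutant replicate 3 at 3 d, ATG8d, ATG8g and ATG8h were not called (adjusted p = 0.17, 0.0845 and 0.0703). Between 4 and 5 d in the dark 1 rose (11.6%), NBR1 at 0.64 ± 0.18 (adjusted p = 0.0171), a call that was lost without mutant replicate 1 or 3 at 4 d or 2 or 3 at 5 d. In wild type 6 rose between 3 and 4 d in the dark (24.2%), with ATG8b at 1.70 ± 0.25, ATG8e at 0.90 ± 0.18 and ATG8f at 0.76 ± 0.17, and 4 rose between 4 and 5 d in the dark (9.42%), of which ATG8b alone was called without wild type replicate 1 at 4 d. ATG8e and ATG8f averaged 54.5 ± 11.9 and 62.2 ± 8.34 CPM at 3 d in the mutant, and 75.3 ± 5.84 and 83.9 ± 7.68 CPM at 5 d, and neither passed the test between successive ages there.

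In light, 8 members rose between 4 and 5 d in wild type (26.8% of all tested genes called), which left out ATG8c and ATG8g. The rises were 0.57 to 1.15 on the log2 scale, with ATG8b (1.15 ± 0.25), ATG8h (0.96 ± 0.23) and ATG8e (0.91 ± 0.18) the highest. In the mutant 0 members were called over the same interval by edgeR's quasi-likelihood test, with 3 at an unadjusted p below 0.05, beside 2.60% of all genes, and DESeq2 also called 0. The interaction of genotype and age was fitted in the dark only. It called 0 members between 3 and 4 d (10.6% of all genes, 3 members at an unadjusted p below 0.05, 0 by DESeq2) and 0 between 4 and 5 d (0.235%, 1 member at an unadjusted p below 0.05, 0 by DESeq2), so that no member's time course in the dark was shown to differ between the genotypes. Without wild type replicate 2 at 3 d it called ATG8e (−0.93, adjusted p = 0.0164) and ATG8f (−0.84, adjusted p = 0.0153) between 3 and 4 d. ATG8e was also called there without mutant replicate 3 at 3 d (−0.90, adjusted p = 0.0296) or wild type replicate 2 at 4 d (−0.87, adjusted p = 0.0363). The values nearest to the threshold were those of ATG8e (−0.74 ± 0.26, adjusted p = 0.056) and ATG8f (−0.63 ± 0.24, adjusted p = 0.0773) between 3 and 4 d.

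In the mutant, light against dark called 0 members at 4 d (2.37% of all tested genes, 1 member at an unadjusted p below 0.05, 0 by DESeq2). At 5 d it called 1 (11.7%), NBR1 at −0.58 ± 0.18 (adjusted p = 0.0317), which was lost without mutant light replicate 1 or 3 or dark replicate 2 or 3. In wild type, light lowered 4 members at 4 d (27.9%), ATG8a (−0.56 ± 0.16), ATG8b (−0.76 ± 0.24), ATG8d (−0.53 ± 0.15) and ATG8h (−0.80 ± 0.23). At 5 d it lowered ATG8a (−0.49 ± 0.16), ATG8b (−0.73 ± 0.24) and NBR1 (−0.54 ± 0.18) and raised ATG8e (0.47 ± 0.18, adjusted p = 0.0427), beside 35.4% of all genes called. Without wild type light replicate 3 at 5 d, the adjusted p was 0.0549 for ATG8a, 0.0608 for ATG8b and 0.0751 for ATG8e, and without wild type dark replicate 3 at 4 d it was 0.0682 for ATG8a and 0.125 for ATG8b. In refits of the same test without 1 library, NBR1 at 5 d was lost in 2 (adjusted p = 0.0653 to 0.114). ATG8e was lost there in 5 (adjusted p = 0.0585 to 0.176). With glucose, light called 0 members in the mutant (1.42%) and 0 in wild type (7.80%), with 0 at an unadjusted p below 0.05 in each and 0 by DESeq2. The interaction of genotype and light called ATG8a (0.67 ± 0.22), ATG8b (1.10 ± 0.34) and ATG8f (0.73 ± 0.24) at 4 d (9.18%) and ATG8a (0.59 ± 0.22) and ATG8b (0.92 ± 0.34) at 5 d (27.3%), with adjusted p of 0.0368 to 0.0497. Most alternative settings, and most refits that left out 1 library, ended some or all of these calls.

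The 10 genes fell into 2 patterns over the 14 group means, described by Pearson's r of mean log2 CPM. The points share libraries and depth, and the groups are not independent, so r is given without a test. NBR1 followed ATG8d (r = 0.964), ATG8a (0.954), ATG8h (0.906), ATG8b (0.882) and ATG8g (0.823). ATG8c followed ATG8e (0.913), ATG8i (0.913) and ATG8f (0.903). Between the patterns, ATG8f and NBR1 had r = −0.081 and ATG8f and ATG8g r = −0.445, whereas ATG8b and ATG8i had r = 0.745. Among all tested genes with a mean log2 CPM of at least 2, those most like NBR1 over the 14 groups were UBC25, a ubiquitin-conjugating enzyme gene (0.993), AT5G42010, annotated as a WD40 repeat protein (0.990), and AT1G60420, annotated as a DC1 domain protein (0.988). Those most like ATG8f were AT1G80180 (0.993), ACX4, a peroxisomal acyl-CoA oxidase gene (0.988), and KING1, annotated as a gamma regulatory subunit of the SNF1-related kinase (0.986). The gene most like ATG8e was DER2.1, which encodes a Derlin (0.989), and that most like ATG8a was AT5G42440, annotated as a protein kinase (0.979).

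**Figure D5:**
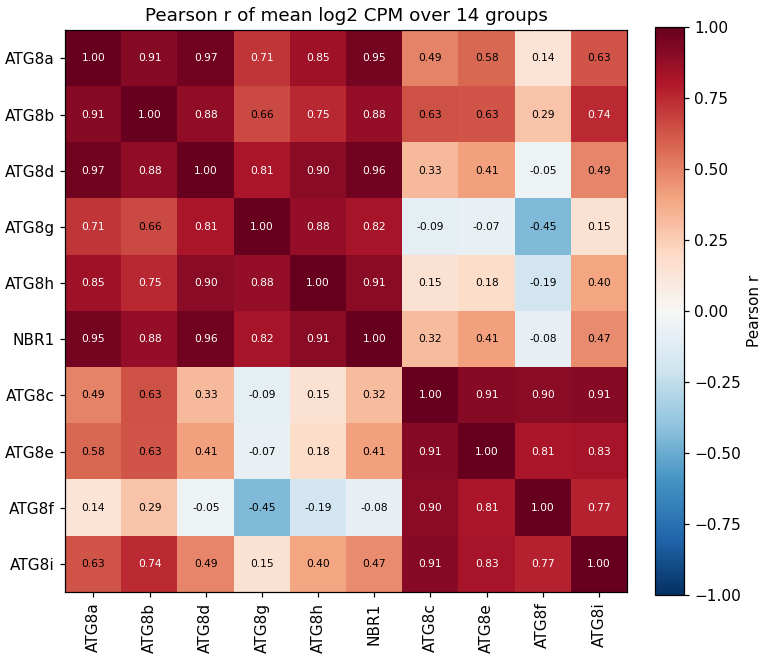
Pearson's r between each pair of genes, from mean log2 CPM over the 14 groups, on a colour scale of −1 to 1. ATG8a, ATG8b, ATG8d, ATG8g, ATG8h and NBR1 (first 6 rows) lie between 0.659 and 0.966 among themselves, and ATG8c, ATG8e, ATG8f and ATG8i between 0.772 and 0.913.

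The rest of the autophagy machinery was described by 3 lists, 23 genes of the initiating kinase, lipid kinase and membrane supply, 9 genes of the conjugation of ATG8, and 9 genes of other proteins known to bind ATG8 in plants. In the mutant at 5 d in the dark, 10 of the 23 kinase and lipid genes rose and 7 fell (median log2 fold change 0.29), 3 of the 9 conjugation genes rose and 3 fell (−0.15), and 4 of the 9 binding genes rose and 3 fell (−0.01), so that each list held calls in both directions, beside 61.3% of all genes called. In the dark at 4 d, 5 of 23 rose and 8 fell, 2 of 9 rose and 5 fell, and 3 of 9 rose and 2 fell in the same order of lists, beside 29.5% of all genes higher and 28.5% lower. AT2G44140, annotated as a peptidase of family C54, the family of ATG4, fell in the mutant by −2.05 ± 0.24 at 4 d in the dark, −2.40 ± 0.24 at 5 d in the dark and −2.29 ± 0.24 at 5 d in light. ATG7, the activating enzyme of ATG8, rose by 1.25 ± 0.14 at 5 d in the dark, and ATG5 fell by −1.49 ± 0.17 at 5 d in light. AT3G61960, a protein kinase gene of the kinase list, rose by 1.92 ± 0.25 at 4 d and 2.64 ± 0.25 at 5 d in the dark. In the same list AT1G77890 rose by 1.89 ± 0.32 at 3 d, 2.95 ± 0.33 at 4 d and 3.19 ± 0.33 at 5 d in the dark, and by 2.65 ± 0.33 at 4 d in light. AT1G49180, also of the kinase list, fell by −1.71 ± 0.21 at 4 d and −2.005 ± 0.216 at 5 d in light. In the binding list 6 of 9 rose and 0 fell at 4 d in light (median 0.43), beside 54.0% of all genes called. RPN10, a proteasome subunit gene whose product binds ATG8, rose by 1.06 ± 0.13 at 4 d in light.

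With glucose every call in the kinase and conjugation lists was a fall. In the mutant, 17 of the 23 kinase and lipid genes fell and 0 rose in the dark (median log2 fold change −0.62) and 17 fell and 0 rose in light (−0.71), against a median of 0.00 and −0.04 over all genes. Of all genes, 21.4% were lower and 19.3% higher with glucose in the mutant in the dark, and 23.2% lower and 19.8% higher in light. In wild type 16 fell and 0 rose in the dark (−0.62) and 10 fell and 0 rose in light (−0.39), where the median over all genes was 0.03 in the dark and in light. There 20.9% of all genes were lower in the dark and 18.3% in light. Of the 9 conjugation genes, 6 fell in the mutant and 6 in wild type in the dark, and 7 fell in the mutant and 5 in wild type in light, with 0 rising in each. AT3G18770, annotated as autophagy-related protein 13, fell by −1.81 ± 0.22 in the mutant in the dark, and ATG18a, a phosphoinositide-binding protein gene, by −0.93 ± 0.13. AT2G44140 fell by −2.57 ± 0.24 in wild type in the dark and VPS15, a subunit gene of the lipid kinase complex, by −1.54 ± 0.17. In the binding list the calls were mixed in wild type, with 4 of 9 falling and 0 rising in the mutant in the dark, and 3 falling and 2 rising in wild type in the dark.

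The upstream sequence was read because the members moved in 2 groups, and 3 windows are shown, for NBR1 and for the falling genes ATG8f and ATG8e. Each holds the 250 bases before the annotated start of the gene in RefSeq TAIR10.1, 5′ to 3′ on the strand of the gene, with matches to TGACG on either strand in capitals.
NBR1 (chr4:12740782-12741031, plus strand): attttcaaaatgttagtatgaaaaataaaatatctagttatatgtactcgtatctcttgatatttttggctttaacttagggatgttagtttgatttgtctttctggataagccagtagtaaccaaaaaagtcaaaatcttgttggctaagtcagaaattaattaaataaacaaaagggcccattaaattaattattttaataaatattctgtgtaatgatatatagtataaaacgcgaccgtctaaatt
ATG8f (chr4:9308539-9308788, minus strand): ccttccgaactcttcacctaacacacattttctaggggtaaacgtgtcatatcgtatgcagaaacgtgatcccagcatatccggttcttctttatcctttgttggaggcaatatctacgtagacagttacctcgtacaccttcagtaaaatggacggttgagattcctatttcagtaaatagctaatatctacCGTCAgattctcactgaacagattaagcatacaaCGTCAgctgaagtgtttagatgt
ATG8e (chr2:18624014-18624263, plus strand): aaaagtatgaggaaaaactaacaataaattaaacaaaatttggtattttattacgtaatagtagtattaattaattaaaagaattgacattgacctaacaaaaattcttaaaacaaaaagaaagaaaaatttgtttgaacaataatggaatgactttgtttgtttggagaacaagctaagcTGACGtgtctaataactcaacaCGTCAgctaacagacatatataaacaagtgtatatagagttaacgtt
TGACG is the core of sites bound by TGA-type bZIP factors. It was found in the windows of 6 of the 9 ATG8 genes and not in that of NBR1, and in 18.6% of the windows of 27443 protein-coding genes. ATG8e and ATG8f held 2 matches each, and ATG8i held 3, while ATG8a, ATG8g and ATG8h held 1 each, so the motif stood in both groups of members. CACGTG, the G-box, was in no window of the 10 members and in 6.49% of all windows. ACTCAT was in the window of ATG8g and in 12.3% of all windows. Also read, and not in capitals, were ACGT, TTGAC and ATATC, which stood in 44.1%, 44.9% and 49.5% of all windows. In that order, NBR1 held 0, 1 and 3 matches, ATG8f 4, 0 and 4, and ATG8e 4, 2 and 0. These matches describe the letters of the windows, and a window without a match says nothing of more distant sequence.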

How the data were processed

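Messenger RNA of whole Arabidopsis seedlings was sequenced by the authors. Raw counts of reads for each transcript model were deposited, made with featureCounts 1.6.2 without a strand option from reads aligned to TAIR10, per the file headers, and with STAR, per the submitters' processing notes, which also name DESeq2. Exon length per model, another unit deposited in the tables, was used to choose models and for TPM. The tables hold 49 count columns, 1 of them an exact repeat, 40745 transcript rows and 32678 genes. Because 1 read can count for several overlapping models, each gene was taken from its longest model. These models hold 65.2% of the counts. The 3 d dark libraries carry 2 columns each, which differed by little more than counting error (chi-square per degree of freedom 1.04 to 1.06, against 7.12 to 41.3 between libraries of different numbers, in genes of 50 counts or more). They were summed as runs of 1 library, which leaves 42 libraries with 4956025 to 26126836 counts.

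Genes were filtered with filterByExpr and scaled by TMM in edgeR 4.0.16 (R 4.3.3), which left 22586 genes. In each untreated condition the TMM factors of the wild type libraries lay below those of the mutant libraries. Falls in the untreated mutant are therefore larger, and rises smaller, after this scaling than before it. TPM were not scaled by these factors. The fit had 14 group means over all libraries, 28 residual degrees of freedom and a biological coefficient of variation of 21.1%. The 29 contrasts, 23 of group pairs and 6 interactions, went through edgeR's quasi-likelihood test (robust) with Benjamini-Hochberg adjustment over all tested genes, at a threshold of 0.05. The test was checked on simulated counts in which few genes changed, in a single group and in equal numbers up and down. That check does not cover comparisons in which most genes were called. Log2 fold changes are given with the SE of that fit (n = 3 a group), and levels as means ± SD. For r, log2 CPM used a prior count of 2. Since reads were counted without strand, reads of overlapping antisense genes cannot be told apart from those of the member.

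All 10 members are named in full. Pathway genes are named only from among the 4 with the smallest adjusted p in a comparison, and not all of those are named. The members, lists, motifs and tests were chosen with earlier results of these data known. Replicate numbers are shared across groups, and same-numbered libraries deviated together only at 3 d in the dark (correlations of 0.148, 0.139 and 0.19 between genotypes), a pairing read from the data. Alternatives were RLE scaling, no filter, DESeq2 1.42.0, other choices of model, 1 column at 3 d, fits to the compared groups, a replicate block, and leaving out each library or those that stand apart. Sequences are from RefSeq on TAIR10.1. The exons of the deposited tables fit this assembly, since 99% of their introns have GT and AG ends in it, but the annotated ends of the members differ between the 2 annotations for 9 of 10 genes. The identifiers of 31912 genes matched a RefSeq locus tag.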

Additional observations from a re-analysis of the deposited data

Results flagged for a closer look

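These results are differences between the genotypes in the response to light or glucose, each from a test of the difference itself by edgeR's quasi-likelihood test, on the log2 scale, where a positive value is a change that is more positive in the mutant. For light at 4 d they were ATG8a (0.67, adjusted p = 0.0497), ATG8b (1.10, adjusted p = 0.0368) and ATG8f (0.73, adjusted p = 0.0461). For light at 5 d they were ATG8a (0.59, adjusted p = 0.0434) and ATG8b (0.92, adjusted p = 0.0398). For glucose in the dark they were ATG8a (−0.76, adjusted p = 0.007), ATG8d (−0.53, adjusted p = 0.0472), ATG8f (1.31, adjusted p = 7.2e-05), ATG8g (−1.20, adjusted p = 0.00185), ATG8h (−1.05, adjusted p = 0.00799) and NBR1 (−1.74, adjusted p = 5.22e-06). For glucose in light they were ATG8a (−1.01, adjusted p = 0.000805), ATG8b (−1.93, adjusted p = 7.6e-05), ATG8d (−0.97, adjusted p = 0.00091), ATG8f (0.66, adjusted p = 0.0326), ATG8h (−1.42, adjusted p = 0.000938) and NBR1 (−1.74, adjusted p = 4.77e-06).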

How the results depend on the processing

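Over all refits of the test no called value of a member changed sign. These refits scaled the libraries by TMM, by RLE or by the size factors of DESeq2. None left the libraries unscaled, and in TPM the falls of ATG8c and ATG8i at 5 d in light were not seen. Of the counts of members called, the following moved by over 1.5 times, and the cause was not tested. NBR1 in light against dark at 5 d in the mutant gave 0 calls with only the groups compared. Without the 3 libraries with raised KIN10, which keeps only mutant replicate 2 at 5 d in light, its value was −0.33 instead of −0.58. Glucose in the mutant in light gave 5 with only the groups compared. The change between 4 and 5 d in the dark in the mutant gave 2 with DESeq2 and 0 with only the groups compared. The interaction of genotype and light at 4 d gave 1 with RLE factors, 0 with no filter and 1 with counts summed over models. At 5 d it gave 0 in each of these 3, 1 with DESeq2, 0 with only the groups compared and 0 with the replicate block. The block, which takes replicate numbers as a pairing, otherwise changed the calls of ATG8i with glucose in wild type in the dark (adjusted p = 0.0473) and of ATG8a in the interaction with light at 4 d (adjusted p = 0.0588). Calls of KIN10 or KIN11 over the 7 comparisons of genotype numbered 4. No count is given without the libraries with raised KIN10, since that fit keeps only mutant replicate 2 at 5 d in light.

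Leaving out 1 library gave 0 to 1 members for light in the mutant at 5 d, 5 to 9 for glucose in the mutant in light and 6 to 9 in the dark, 2 to 5 and 0 to 3 for age in the mutant in the dark (3 to 4 d and 4 to 5 d), 2 to 4 and 1 to 3 for light in wild type at 4 and 5 d, 3 to 8 and 1 to 4 for age in wild type in the dark, 0 to 3 and 0 to 2 for the interaction with light at 4 and 5 d, and 0 to 2 for that with age between 3 and 4 d. The counts by genotype without glucose were 4 to 10 in these refits.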
